A study of Mus musculus with 6 samples.

Results

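Myostatin, follistatin and the insulin-like growth factors (IGFs) form the main secreted controls of skeletal muscle size, and 10 genes of this axis were followed in newborn muscle lacking Klhl40. The members were every probe annotated to Mstn, Fst, Acvr2b, Inhba, Igf1, Igf1r, Igfbp3, Igfbp4, Igfbp5 or Fstl1, which gave 18 of the 45281 probes, for 10 of the 19057 gene symbols on the array. The tissue was quadriceps, from the thigh, taken from C57BL/6 mice aged 0 days. Wild-type mice (WT, n = 3) were compared with Klhl40 knockout mice (KO, n = 3), and by the design text every KO animal had a WT littermate taken alongside it, at birth so that poor feeding would weigh less on expression. Each mouse was measured on 1 Illumina bead array. Arrays of the same number were taken as littermate pairs, which the sample titles do not state. The sources used here do not give the allele, or say whether the knockout acts in muscle alone.

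Myostatin is a ligand of the TGF-beta family that muscle secretes and that limits its own growth. Myostatin and the related activin A bind the type II receptor Acvr2b on the fibre, and follistatin binds both ligands and keeps them from the receptor. IGF1 acts in the opposite direction: it binds Igf1r, signals through Akt and mTOR and promotes growth, while the IGF-binding proteins hold the ligand outside the cell and set how much of it reaches the receptor. The kelch protein encoded by Klhl40 is specific to muscle and stabilises proteins of the thin filament; in people its loss leads to nemaline myopathy, a severe congenital weakness. The question addressed here is whether the genes of this growth axis differed between the genotypes at birth.

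No tested member probe passed the threshold for a difference between the genotypes, and Mstn could not be tested. Of the 18 probes, 16 were detected on all 6 arrays and were tested, and they covered 9 of the 10 genes. At a limma adjusted p under 0.05, 0 of the 16 were called, where 0.152% of all 19099 tested probes were (0.12% higher and 0.0314% lower in KO), and 0 of the 16 had an unadjusted p under 0.05, where 7.01% of all probes had. With the littermate pair as a block 0 of the 16 were called (0.23% of all probes), and 2 of them, Acvr2b and Igf1r probe 2, had an unadjusted limma p under 0.05, where 10.2% of all probes had. Across the other alternatives 0 to 4 member probes had an unadjusted limma p under 0.05, as given below. The smallest limma adjusted p was 0.724, for Acvr2b. Taken probe by probe, the 95% interval of the KO minus WT difference lay within 2-fold in either direction for all 16, as it did for 97.4% of all probes. For 14 of 16 (87.5%) it lay within 1.5-fold, against 80.8%. These intervals describe normalised intensity, in which the added offset of 16 can compress the differences of dim probes. The tenth gene, Mstn itself, gave no signal above background on any array. Differences are given as KO minus WT on the log2 scale of normalised intensity, and levels on that scale are compared only within a probe.

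Klhl40 itself had a log2 level of 10.72 ± 0.08 in the 3 WT mice and of 4.99 ± 0.66 in the 3 KO mice (mean ± SD), so the arrays follow their labels. Each array detected between 18373 and 19189 probes. The 9 tested fibre markers were detected on all 6 arrays, and their summed intensity was 243997 to 251333 in WT and 244312 to 248244 in KO, at the top of the range, where quantile normalisation can hold such sums equal. Over all tested probes limma called 23 higher and 6 lower in KO, and 31 and 13 with the littermate pair as a block. These counts rest on few arrays: they were 2 and 1 without WT 1, KO 1 or KO 2, 5 and 1 without KO 3, 8 and 1 without WT 2, and 17 and 10 without WT 3. The array WT 3 stood apart, at 37.4 on the first principal component (42.8% of the variance) against -17.1 to 10.7 for the others, of which KO 3 was the highest. Its 6 tested adipocyte markers summed to 6944, against 755 to 1744 on the other WT arrays and 1049 to 1564 in KO. Differences without WT 3 are therefore given below for most member genes, though not for every probe.

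The ligand Mstn could not be measured. Its only probe (ILMN_1231247) gave scanner intensities of 96.8, 105 and 96.0 in WT 1 to 3 and 99.1, 98.4 and 96.8 in KO 1 to 3. The lowest intensity that counted as detected was 116 to 119, depending on the array. The detection p of the probe, the share of negative controls at or above its intensity, was 0.482 on WT 2 and 0.912 to 0.982 on the other 5 arrays. The probe was therefore not above background in either genotype, and neither a level nor a fold change of myostatin mRNA can be read from it. A single probe that stays dark does not show that the transcript is absent.

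Inhba encodes the subunit of activin A, the second ligand of the axis. Its probe (ILMN_2868220) lay close above background, at 6.07, 5.16 and 6.00 in WT 1 to 3 and 5.84, 5.48 and 6.07 in KO 1 to 3. The low values were those of WT 2 and KO 2, the animals that share a number, and all KO values lay inside the WT range. The difference was 0.05 (95% interval -0.54 to 0.65), the widest interval of the 16 probes. Within littermate pairs it was -0.23, 0.32 and 0.07, and without WT 3 it was 0.18.

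Acvr2b, the type II receptor that binds myostatin and activin, came closest to a difference. Its probe (ILMN_1230145) read 10.05, 10.06 and 10.35 in WT 1 to 3 and 9.83, 9.77 and 10.02 in KO 1 to 3. Every KO value lay below every WT value, with KO 3 just under WT 1. The difference was -0.28 (SE 0.13, limma adjusted p = 0.724), which is a KO level 0.824 times that of WT with a 95% interval from 0.673 to 1.01. The unadjusted limma p was 0.0588. It was negative in all 3 littermate pairs, at -0.22, -0.29 and -0.32. With the pair as a block the SE was 0.10 and the unadjusted limma p 0.0229, while the adjusted p was 0.411. Without WT 3, the highest array, the difference was -0.18.

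Genes whose 6 values ran most like those of Acvr2b were looked up among all tested probes with a gene name, by Pearson's r over the 6 arrays. The 5 closest were Bzw2 (r of 0.992), Gdf1 (0.991), Inpp5d (0.988), Pdia4 (0.986) and Lipa (0.983). None of them was called, and their differences ran from -0.56 for Gdf1 to -0.21 for Bzw2. They were chosen for likeness over arrays of both genotypes, so their negative direction followed from the choice. With 6 points such likeness is common, since 242 named probes had an r above 0.9.

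Of the antagonists, Fst encodes follistatin, which neutralises myostatin and activin. Its probe (ILMN_1228958) read 8.44, 8.36 and 8.15 in WT 1 to 3 and 8.34, 8.34 and 7.87 in KO 1 to 3. The lowest array of each genotype was the one numbered 3, and the groups overlapped. The difference was -0.13 (95% interval -0.49 to 0.23, limma adjusted p = 0.931), and it was 0.02 without KO 3 and -0.22 without WT 3. Fstl1, a secreted glycoprotein with a follistatin domain that muscle and connective tissue make, read 11.22, 11.21 and 11.54 in WT 1 to 3 and 11.27, 11.15 and 11.29 in KO 1 to 3 (ILMN_2734683). WT 3 alone stood above the rest. The difference was -0.09 (95% interval -0.37 to 0.20, limma adjusted p = 0.943) with all arrays and 0.02 without WT 3.

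**Figure D1:**
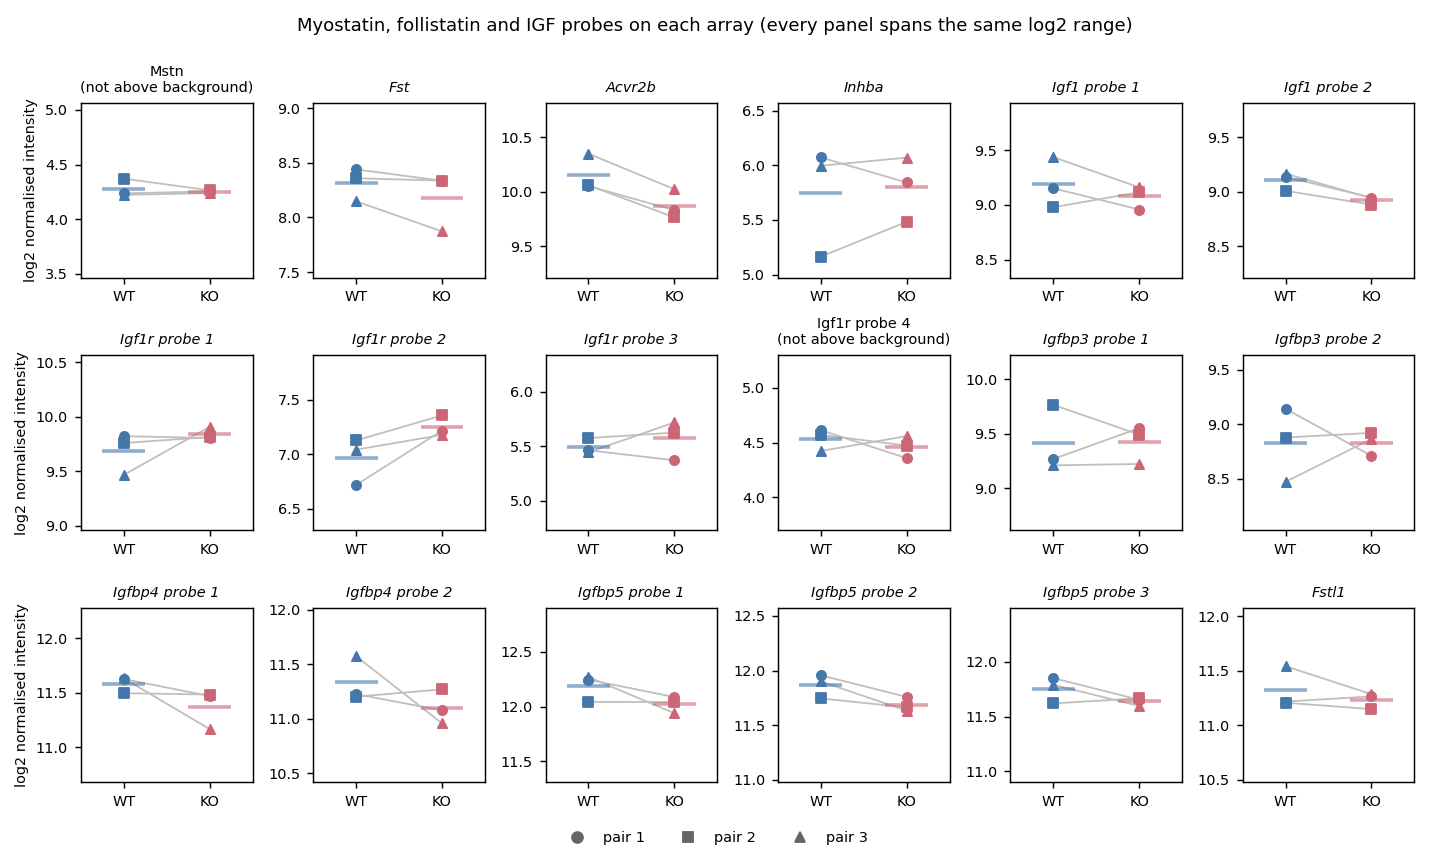
Log2 normalised intensity of each of the 18 member probes in WT (blue) and KO (red), 1 point per mouse, with a bar at each group mean and a grey line joining arrays of the same pair number. Each panel spans the same number of log2 units around its own mean, so steps can be compared but heights cannot; the Acvr2b, Igf1 probe 2 and Igfbp4 probe 1 groups separate downward, and Igf1r probe 2 separates upward.

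Where a gene had several probes they were numbered from the brightest. Igf1, the growth-promoting ligand, had 2 (ILMN_1225565 and ILMN_2769884). Probe 1 read 9.15, 8.98 and 9.44 in WT 1 to 3 and 8.96, 9.12 and 9.16 in KO 1 to 3, with WT 3 above the rest and the other 5 arrays intermixed. Its difference was -0.11 (95% interval -0.43 to 0.21), and 0.01 without WT 3. Probe 2 read 9.14, 9.01 and 9.17 in WT 1 to 3 and 8.95, 8.88 and 8.94 in KO 1 to 3, so that all KO values lay below all WT values. Its difference was -0.18 (95% interval -0.41 to 0.05, limma adjusted p = 0.786), negative in all 3 pairs, and -0.15 without WT 3. The KO level of Igf1 was thus 0.926 times that of WT by probe 1 and 0.882 times by probe 2. The probes correlated over the 6 arrays with an r of 0.623, a description on shared arrays.

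Igf1r encodes the receptor through which IGF1 signals. Its brightest probe (ILMN_1249824) read 9.82, 9.76 and 9.47 in WT 1 to 3 and 9.80, 9.81 and 9.91 in KO 1 to 3. WT 3 was the low array here and the other 5 lay close together. The difference was 0.16 (95% interval -0.12 to 0.44, limma adjusted p = 0.878), and 0.05 without WT 3. Probe 2 (ILMN_1239663) read 6.72, 7.13 and 7.04 in WT 1 to 3 and 7.22, 7.36 and 7.18 in KO 1 to 3. All KO values lay above all WT values, by the margin between KO 3 and WT 2, and the difference was 0.29 (95% interval -0.02 to 0.59, limma adjusted p = 0.730). It was positive in all 3 pairs, at 0.50, 0.23 and 0.13, and had an unadjusted limma p of 0.0375 with the pair as a block (adjusted p = 0.454). The difference was 0.17 without WT 1, the lowest array, 0.33 without WT 3 and 0.17 without background correction. Probe 3 (ILMN_2482214), near background, had a difference of 0.08 (95% interval -0.20 to 0.36). Probe 4 (ILMN_1232222) was detected on 0 of 6 arrays, with a detection p of 0.111 to 0.551, and was not tested. The 3 tested probes of the receptor were all on the positive side, but for 2 of the 3 the groups overlapped, and the probes shared little of their variation over arrays, with an r of 0.144 to 0.473 between them.

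The IGF-binding proteins carry IGF1 and IGF2 in the tissue and release them on cleavage. Igfbp5, which developing muscle makes in large amounts as myoblasts differentiate, had 3 bright probes. The brightest (ILMN_1254358) read 12.25, 12.05 and 12.27 in WT 1 to 3 and 12.09, 12.05 and 11.94 in KO 1 to 3, with WT 2 inside the KO range. The 3 probes gave differences of -0.16, -0.18 and -0.12 (limma adjusted p = 0.843, 0.808 and 0.908), with all 3 intervals together spanning -0.42 to 0.13. They ran closely together over the arrays, with an r of 0.928 to 0.955. For all 3, WT 1 and WT 3 were the highest arrays. Probe 3 had a difference of -0.07 without WT 1 and of -0.18 without WT 2, and probe 1 of -0.08 without both arrays numbered 3.

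Igfbp4, a binding protein that restrains IGF action, read 11.62, 11.50 and 11.63 in WT 1 to 3 and 11.47, 11.48 and 11.17 in KO 1 to 3 at probe 1 (ILMN_1258988). All KO values lay below all WT values, though WT 2 and KO 2 were only 0.01 apart. The difference was -0.21 (95% interval -0.49 to 0.07, limma adjusted p = 0.808), and -0.11 without KO 3. Probe 2 (ILMN_2694955) gave -0.23 (95% interval -0.56 to 0.09, limma adjusted p = 0.826) with overlapping groups. Its highest array was WT 3 at 11.57 and its lowest KO 3 at 10.96, so that the pair differences were -0.15, 0.07 and -0.61. Without WT 3 probe 2 had a difference of -0.11.

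Igfbp3, the main IGF carrier of the circulation, showed no clear difference between the genotypes at either probe. Probe 1 (ILMN_2727503) read 9.27, 9.77 and 9.21 in WT 1 to 3 and 9.55, 9.49 and 9.22 in KO 1 to 3. Probe 2 (ILMN_1219335) read 9.14, 8.88 and 8.47 in WT 1 to 3 and 8.71, 8.92 and 8.87 in KO 1 to 3. The differences were 0.01 (95% interval -0.39 to 0.40) and 0.00 (95% interval -0.39 to 0.40), and they were -0.09 and -0.18 without WT 3. The probes disagreed on which arrays were high, with WT 2 the highest at probe 1 and WT 1 at probe 2 (r of 0.116).

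**Figure D2:**
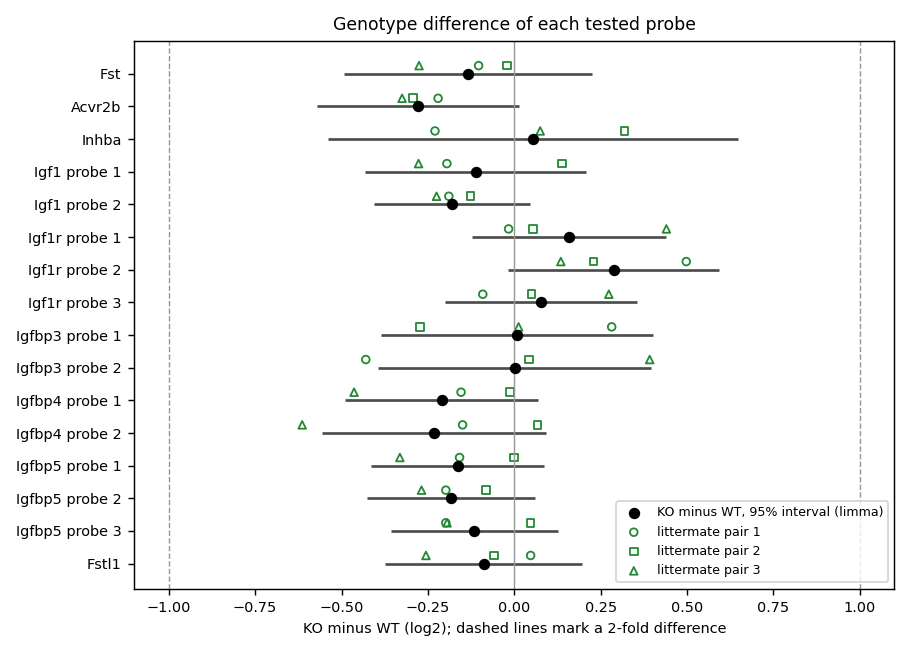
KO minus WT difference (log2) of the 16 tested member probes with its 95% interval from limma (black), and the difference within each littermate pair, assumed from equal numbers (green). All intervals lie between the dashed lines at a 2-fold difference and all include 0.

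Read together, 10 of the 16 differences were negative (62.5%, against 49.6% of all tested probes) and 6 positive, with a median of -0.11 where the median over all probes was 0.00. The groups did not overlap for 4 of the 16 probes, 3 with KO lower (Acvr2b, Igf1 probe 2 and Igfbp4 probe 1) and 1 with KO higher (Igf1r probe 2). Over all tested probes 13.3% did not overlap, 6.07% with KO lower and 7.25% with KO higher. The 4 belong to 4 genes, and for 3 of these genes another tested probe overlapped. The median absolute difference was 0.15 in the members and 0.10 over all probes, and the median SE was 0.125 and 0.131.

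The signal of a probe is the mean over its beads, which gives each array its own measurement error. For the tested members 22 to 71 beads stood behind a value, and the standard error over beads was 2.01% to 5.04% of the intensity. In all 16 probes this bead error was smaller than the SD between arrays of one genotype. The range was from 0.0436 of bead error against 0.0550 between arrays for Igf1 probe 2 to 0.0527 against 0.220 for Igfbp3 probe 1 (log2 units, without background correction). With 1 array per mouse, labelling and hybridisation error cannot be told apart from the spread between mice.

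WT 3 was the highest array for 7 of the 16 probes and the lowest for 3, and KO 3 was the lowest for 6. The median member deviation from the 6-array mean was 0.14 on WT 3, 0.09 on WT 1 and between -0.03 and -0.0038 on the other arrays. Besides the adipocyte markers, WT 3 had the highest median deviation for the markers of fibroblasts (0.13), macrophages (0.21), endothelium (0.21) and smooth muscle (0.28). The same held for cartilage and bone (0.27), erythroid (0.20) and keratinocyte (0.13) markers, but not for fibre, myoblast, tendon or Schwann cell markers. Without background correction KO 3 was highest for erythroid markers (0.19, against 0.16 on WT 3). WT 1 was then highest for keratinocyte markers (0.06, against 0.03 on WT 3). The 2 tested keratinocyte genes disagreed, with WT 3 lowest for Krt10 (8.12) and highest for Trp63 (6.73). The fibroblast sum was highest on WT 1 (33387, against 33259 on WT 3), as were the smooth muscle and keratinocyte sums. The erythroid sum was highest on KO 3 (28597, against 28085 on WT 3). Fibroblasts and other stromal cells also make Igf1, Fstl1, Igfbp4 and Igfbp5. The 11 tested fibroblast markers summed to 30491 to 33387 in WT and 28663 to 31117 in KO, with 10 of 11 differences negative, a median of -0.11 and 0 called. The 6 tested smooth muscle and pericyte markers summed to 13690 to 14460 in WT and 9959 to 10846 in KO, with 0 of 6 called. Nearly all of that sum was Acta2 (-0.48, limma adjusted p = 0.237), an actin that immature muscle fibres also make, so the sum followed that gene. The other markers of the list ran from -0.22 for Tagln to 0.27 for Cspg4, and 4 of the 6 differences were negative. The part of these cells in the member values was not tested. In whole muscle, fewer cells of a type and less RNA per cell cannot be told apart.

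**Figure D3:**
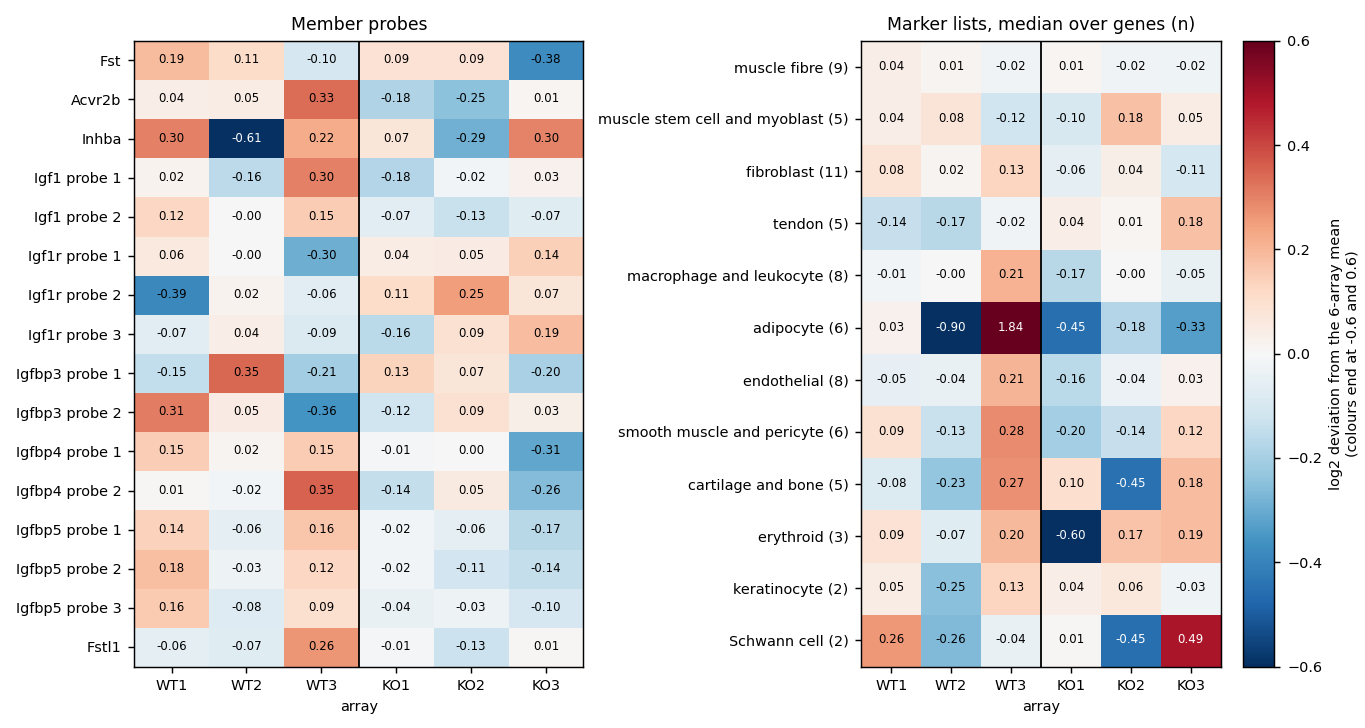
Log2 deviation of each array from the mean over the 6 arrays, for the 16 tested member probes (left) and as the median over the genes of each marker list (right, with the number of genes). WT 3 is the highest array for 7 member probes and for adipocyte markers, at 1.84.

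The rest of both pathways was read from 8 lists of 106 genes, of which 97 had an annotated probe and 79 a tested one, each taken at its brightest probe. Limma called 0 of the 79 at an adjusted p under 0.05 (0.152% of all probes), with 7 (8.86%) at an unadjusted p under 0.05, near the 7.01% of all probes. There were 44 positive and 35 negative differences with a median of 0.02. The groups of 13 genes (16.5%) did not overlap, against 13.3% of all probes. The 2 genes with the smallest p in each list follow.

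Among 8 TGF-beta family ligands (median 0.11), Tgfb3 read 8.28, 8.34 and 8.44 in WT 1 to 3 and 8.77, 8.65 and 8.61 in KO 1 to 3. The KO values were all higher, by 0.32 (95% interval 0.09 to 0.56, limma adjusted p = 0.538). Tgfb1 had -0.28, and -0.09 without WT 3. Among 10 receptors (median 0.00), Bmpr1b, a type I receptor for bone morphogenetic proteins, had 0.19 at its brightest probe (0.10 without background correction) and -0.07 at the other. Acvr1c, the activin receptor also known as ALK7 and typical of fat cells, had -0.81. That value came from WT 3 at 8.21 against 5.24 to 5.90 on the other 5 arrays, the same array on which adipocyte markers were high, and it was 0.07 without WT 3.

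Among 11 antagonists and processing factors (median -0.04), Bmp1, a metalloprotease that can release latent myostatin from its propeptide, had -0.25 (95% interval -0.48 to -0.02, limma adjusted p = 0.670) at its brightest probe. Its other 3 probes gave -0.12, -0.10 and 0.09. Dcn, the proteoglycan decorin that binds TGF-beta ligands, had -0.20, with -0.00, 0.03 and -0.21 at its other probes. Among 11 Smads and regulators (median 0.05), the receptor-activated Smad1 had 0.19 at its brightest probe and 0.17 and -0.23 at the others. The Smad repressor Skil had 0.19, with 0.06 at its other probe and 0.12 without KO 2. Neither was called. Among 4 relatives with a follistatin-like domain, all with negative differences (median -0.14), Smoc1 had -0.47 (95% interval -0.89 to -0.04, limma adjusted p = 0.651), and -0.29 without KO 3, its lowest array. Sparc had -0.18, and -0.05 without WT 3, its highest array.

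On the IGF side, 9 ligands, binding proteins and proteases had a median of -0.15. Stc2, stanniocalcin-2, which inhibits the protease that frees IGF from its binding proteins, read 5.61, 5.86 and 5.54 in WT 1 to 3 and 5.96, 6.21 and 6.08 in KO 1 to 3. Its difference was 0.42 (95% interval 0.13 to 0.71, limma adjusted p = 0.510). The probe lies near background, and without background correction its difference was 0.16. Igfals, the acid-labile subunit of the circulating IGF complex, had -0.53, carried by WT 3 at 6.45 against 4.87 to 5.10 elsewhere, and -0.07 without WT 3. Igf2, the main fetal IGF ligand, had -0.01 (95% interval -0.24 to 0.23) at a level among the brightest, where quantile normalisation can hold a difference near 0. It was named after its values were seen.

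The largest positive difference among the 79 genes was in the kinase that activates Akt below Igf1r. Pdpk1, which encodes PDK1, read 9.76, 9.72 and 9.45 in WT 1 to 3 and 10.24, 10.28 and 10.45 in KO 1 to 3 at its brightest probe. The KO values all lay above the WT values, with a difference of 0.68 (95% interval 0.39 to 0.96), a 1.60-fold ratio. The unadjusted limma p was 0.000586 and the adjusted p 0.149, so it was not called. With an intensity trend in limma's variance prior the adjusted p was 0.0499, which would be a call, and over all alternatives it ran from 0.0499 to 0.521. Its second probe gave 0.54 (95% interval 0.23 to 0.85, limma adjusted p = 0.357), again with no overlap. In the same list of 13 (median 0.05), Insr, the insulin receptor, had 0.32 (95% interval 0.07 to 0.58, limma adjusted p = 0.587) with all KO values higher, and 0.09 at a second probe near background. Among 13 genes of the mTOR and FoxO branch (median 0.09, 11 positive), Foxo3, a transcription factor that Akt inhibits, had 0.38 near background (0.11 without background correction) and Rictor, the defining subunit of mTOR complex 2, 0.23 at its brightest probe. The other 6 Rictor probes ran from -0.41 to 0.14.

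**Figure D4:**
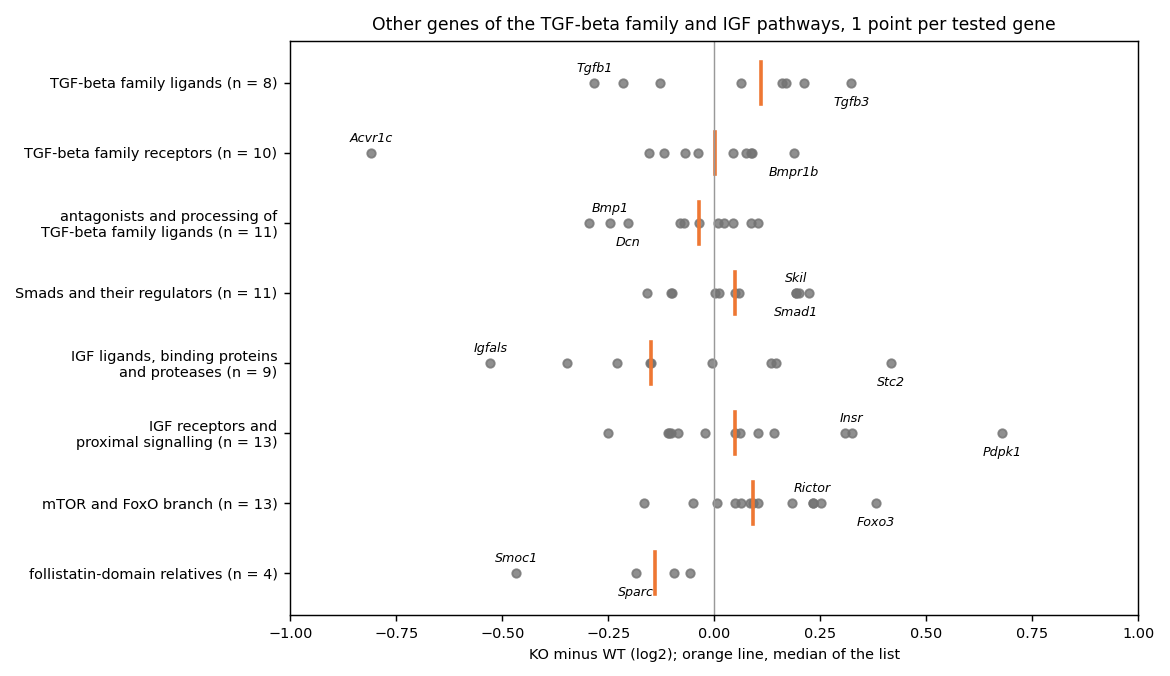
KO minus WT difference (log2) of the 79 other pathway genes, 1 point per gene at its brightest probe, with the median of each list in orange and the 2 genes of smallest p named. Pdpk1 lies farthest to the right at 0.68 and Acvr1c farthest to the left at -0.81.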

How the data were processed

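Per the file headers, the authors deposited for each array the mean bead intensity of every probe without normalisation, the count of beads, their standard error and a detection p-value. A second deposited table holds processed intensity on a linear scale. Its columns had a median of 112 each and matched their own arrays' scanner values with an r of 0.999746 or more (log2). Its normalisation is unknown here, and it served as an alternative. Scanner, software and genome build are not named either. Probe names came from the platform annotation: 34885 of 45281 probes had 1 symbol, 18 several and 10378 none.

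Intensities were background-corrected with negative controls inferred from detection p-values, quantile-normalised and put on the log2 scale (neqc, offset 16, limma 3.58.1, R 4.3.3). The 19099 probes with a detection p under 0.05 on at least 3 of 6 arrays were fitted with lmFit and eBayes (two-sided, Benjamini-Hochberg over all of them, threshold 0.05). The fit was tested on simulated data. The limma p-values set each difference against the spread between arrays within a genotype, moderated by eBayes over all fitted probes. With 1 array per mouse, that spread holds measurement error as well as differences between mice. The design text gives littermates. The sample titles number the animals but do not say which were littermates. Deviations from group means correlated at 0.311, 0.206 and 0.452 between arrays of the same number and at -0.392 to 0.234 otherwise. WT 2 was closer to KO 1 (0.234) than to KO 2 (0.206), so this check does not settle the pairs. Equal numbers were taken as pairs, and a block was an alternative. Others were background correction, offset, centring, filters, one probe per gene, array weights, an intensity trend and leaving out arrays. All members are named, and of each pathway list the 2 genes with the smallest p. Members, lists and tests were chosen with earlier results of these data known.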

Additional observations from a re-analysis of the deposited data

How the results depend on the processing

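All 17 alternatives called 0 of the member probes, with a smallest limma adjusted p of 0.411 (Acvr2b, littermate pair as a block). Some of them could hardly have called a member, since they called few or no probes on the whole array, as given below. At an unadjusted limma p under 0.05 there were 3 without background correction (1476 of all 19099 probes) and 3 in the deposited values (1475). There were 2 with array weights (1928), 2 with an intensity trend (1361) and 1 with an offset of 50 (1366). Without the filter there were 4 (2921 of 45281). With median centring, detection on all 6 arrays or one probe per gene there were 0, and leaving out arrays gave 0 or 1. Of 265 recomputed member differences, 244 kept direction and side of the threshold and 21 reversed, among 7 probes, all of them small differences. The cause of the reversals was not tested. The changed filters, one probe per gene, the replicate block and the intensity trend reuse the main normalised values. They leave the difference itself unchanged, so no reversal was possible there, and the 244 include those rows. Leaving out arrays gave -0.22 to 0.021 for Fst, -0.15 to 0.021 for Fstl1, -0.24 to 0.22 for Inhba, -0.22 to 0.013 for Igf1 probe 1, -0.021 to 0.18 for Igf1r probe 3, -0.095 to 0.18 for Igfbp3 probe 1 and -0.19 to 0.16 for Igfbp3 probe 2. The other probes kept their sign, at -0.35 to -0.18 for Acvr2b, -0.23 to -0.15 for Igf1 probe 2, 0.019 to 0.23 and 0.17 to 0.37 for Igf1r probes 1 and 2, -0.26 to -0.083 and -0.32 to -0.041 for Igfbp4 probes 1 and 2, and -0.23 to -0.079, -0.24 to -0.14 and -0.18 to -0.066 for Igfbp5 probes 1 to 3. Igfbp3 probe 1 was also -0.035 with median centring, which set the median of all probes to -0.03, and -0.0045 with array weights. Igfbp3 probe 2 was -0.053 with median centring, -0.10 with array weights, -0.0022 without background correction, -0.00023 with an offset of 50 and -0.0021 in the authors' deposited values.

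Over all probes the calls (23 higher and 6 lower) were 31 and 13 with the replicate block, which changed no other call, 45 and 16 with array weights, and 44 and 12 with an intensity trend, where 1 pathway gene (Pdpk1) was called. Lower calls were 10 without background correction and 10 in the deposited values. With one probe per gene 15 were higher. Without the filter on dim probes limma called 0 and 0 of 45281, with 2921 at an unadjusted p under 0.05. Klhl40 itself was therefore not called there. Leaving out arrays gave 2 to 17 higher and 1 to 10 lower. Leaving out both arrays numbered 3, chosen after seeing the data, gave 11 and 6. With 3 mice per genotype, small differences were not detectable, and probes near background (Inhba, Igf1r probe 3) are the least certain.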

Other observations

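Acvr2b lies on the same chromosome as Klhl40, and in the RefSeq mouse annotation 28 protein-coding genes stand between them. Of these, 14 had a tested probe, with a median KO minus WT difference of -0.06. In 3 of the 14 (21.4%) all KO values lay below all WT values, against 6.07% of all tested probes, and in 0 all lay above, against 7.25%. Limma called 0 of the 14. None of the other 9 member genes is on that chromosome. Whether DNA flanking the knockout allele differs from that of WT was not tested.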
